A study of Mus musculus with 8 samples.

Results

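Axon guidance ligands and receptors were described here in skeletal stem cells of the mouse spine and of the mouse long bones. They were taken by gene name from the protein-coding expression table, as all rows named for semaphorins, plexins, neuropilins, ephrins, Eph receptors, netrins, Slit proteins, Robo receptors or Unc5 receptors. The names matched 70 of the 22053 rows, with 69 symbols, because Epha5 stood on 2 rows. Unc50, the homolog of a worm protein needed for assembly of an acetylcholine receptor, and Unc5cl, a death domain protein, were matched by name only. The other 68 rows, 34 for ligands and 34 for receptors, are the guidance genes below.

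The study set candidate vertebral skeletal stem cells (vSSC), sorted from the spine, against long bone skeletal stem cells (lbSSC), sorted from femur and tibia. All mice were WT and at postnatal day 10, and each group had 4 bulk RNA-seq libraries, replicates 1 and 2 from males and replicates 3 and 4 from females. Both groups were sorted by 1 gate, as CD200+ cells that were CD105-, 6C3-, Thy-, CD45-, TER119- and CD31-. The labels call the libraries biological replicates without giving the number of animals in each, and p-values therefore measure no more than the spread among these libraries, which may be technical.

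Guidance cues were named for steering growing axons. A secreted or membrane-bound ligand binds a receptor on another cell and changes that cell's cytoskeleton, often through small GTPases, so that the cell or its process turns towards the ligand or away from it. Secreted class 3 semaphorins act through neuropilins and plexins, ephrins and Eph receptors signal into both touching cells, netrins act through Dcc, neogenin and Unc5 receptors, and Slit proteins act through Robo receptors. In bone the same proteins are known for guiding sensory nerves and vessels, and for signals between osteoclasts, which resorb bone, and osteoblasts, which form it.

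Levels are in FPKM, in which fragments are divided by transcript length and library size, so levels of different genes may be set side by side. Each difference is given on the log2(FPKM + 1) scale with its SE and is positive where vSSC was higher, and this scale understates the change of genes at low FPKM. They were tested with limma over the 10729 genes with at least 1 FPKM in at least 4 of the 8 libraries. A gene was called where its p, adjusted by Benjamini-Hochberg over all these genes, was under 0.05. Group levels are means ± SD with n = 4.

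Summed over the protein-coding genes listed, the libraries held 517314 to 571869 FPKM in vSSC and 460302 to 521489 FPKM in lbSSC. Read depth is unknown, so no counting error can be given. Ribosomal protein genes took 18.3% to 21.4% of the summed FPKM in vSSC libraries and 15.6% to 18.4% in lbSSC libraries, so this share is close to confounded with site. Of the markers of other cells, the 8 endothelial genes summed to 0.258 to 0.455 FPKM in vSSC and 1.07 to 2.75 FPKM in lbSSC, with Pecam1 and 6 others under 1 FPKM in every library. The 8 Schwann cell genes summed to 172 to 191 FPKM in vSSC and 86.7 to 129 FPKM in lbSSC, and 4 of the 5 tested were called higher in vSSC, while Sox10 stayed at 1.44 FPKM or below and Foxd3 at 0.300 FPKM or below. The 5 osteoclast genes summed to 55.0 to 77.5 FPKM in vSSC and 107 to 127 FPKM in lbSSC, with Ctsk and Acp5 called lower in vSSC and Oscar, Ocstamp and Dcstamp under 1 FPKM in every library. The 6 osteoblast genes summed to 1138 to 1256 FPKM in vSSC and 3996 to 5856 FPKM in lbSSC, with 1 gene called higher and 2 lower in vSSC. Blood genes summed to 3769 to 5117 FPKM in vSSC and 3883 to 7958 FPKM in lbSSC, with 4 of the 7 tested called higher and 1 lower in vSSC, and Ptprc under 1 FPKM in every library. The 6 chondrocyte genes summed to 12973.5 to 21412.9 FPKM in vSSC and 14800.1 to 24357.2 FPKM in lbSSC, with 2 called higher in vSSC. The 6 neuron genes listed summed to 0.0627 to 6.44 FPKM in vSSC and 0 to 0.418 FPKM in lbSSC, and none was tested. Pericyte and smooth muscle genes summed to 37.2 to 81.2 FPKM in vSSC and 52.8 to 85.7 FPKM in lbSSC. Notochord genes summed to 446 to 603 FPKM in vSSC and 175 to 319 FPKM in lbSSC, nearly all from Cd24a. Of the gate, Cd200 was present at 85.1 to 133 FPKM in vSSC and 84.2 to 143 FPKM in lbSSC. Single genes made up most of some sums: Ncmap averaged 160.1 FPKM in vSSC and 103 FPKM in lbSSC, Ctsk 60.02 FPKM in vSSC and 114 FPKM in lbSSC, Col1a1 723 FPKM in vSSC and 4093 FPKM in lbSSC, and Hbb-bs 2773 FPKM in vSSC and 4032 FPKM in lbSSC. The part of such cells in the results below was not tested.

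More guidance genes were called lower than higher in vSSC. Of the 68 guidance rows, 41 passed the filter on low values, of which 5 (12.2%) were called higher and 13 (31.7%) lower in vSSC. Among all tested genes 14.3% were called higher and 9.17% lower. The median difference of the 41 was -0.30, against 0.08 over all tested genes, and 28 of the 41 differences were below 0. All 4 vSSC libraries lay below all 4 lbSSC libraries in 12 of the 41 and above them in 5, where the shares over all tested genes were 9.99% and 15.8%. Sema4b, Efnb3, Slit3 and Robo1 were under 1 FPKM in every vSSC library and entered the test through lbSSC alone. These 4 of the 13 lower genes therefore had to differ, and the filter fixed their place among the 12 without overlap. Over all tested genes, 86 of 10729 entered through lbSSC alone, so the shares are not fully comparable. The count of lower calls was 8 without lbSSC replicate 3, where 684 of all tested genes were called lower, against 984 as reported. With each library's ribosomal share as a covariate the counts were 3 higher and 4 lower. Over all tested genes that covariate left 237 higher and 384 lower calls, against 1534 and 984 as reported. In bulk libraries fewer cells that express a gene and less RNA per cell cannot be told apart.

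**Figure D1:**
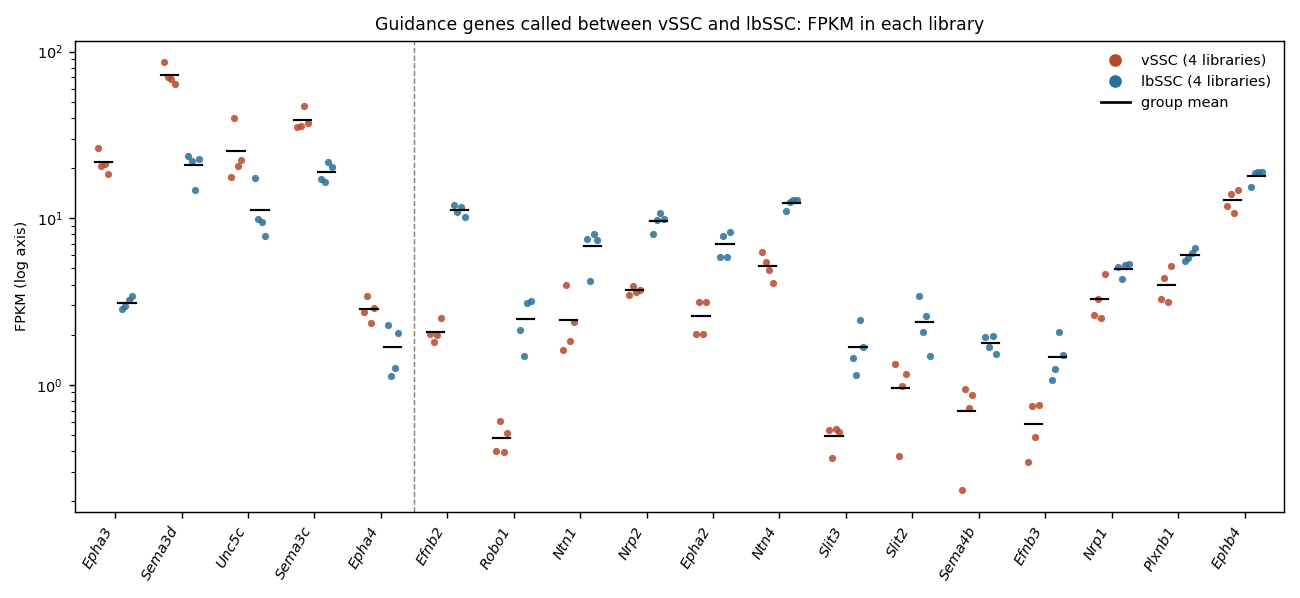
FPKM on a log axis in each library (points) with the group mean (bar) for the 18 guidance genes called between the sites, vSSC left and lbSSC right for each gene. Left of the dashed line stand the 5 genes called higher in vSSC and right of it the 13 called lower, and of the 18 genes Nrp1 alone has overlapping groups.

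Each class held calls of 1 direction or none, except EphA. The 5 higher genes were 2 class 3 semaphorins (Sema3d and Sema3c), 2 EphA receptors (Epha3 and Epha4) and the netrin receptor Unc5c. The lower genes included both neuropilins, both tested netrins, both tested Slit genes, the tested Robo gene and 2 of the 3 ephrin-B genes, and the other 4 were Sema4b, Plxnb1, Epha2 and Ephb4. By role, 2 of the 24 tested ligands were called higher and 7 lower, and of the 17 tested receptors 3 were called higher and 6 lower. No difference between classes was itself tested.

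**Figure D2:**
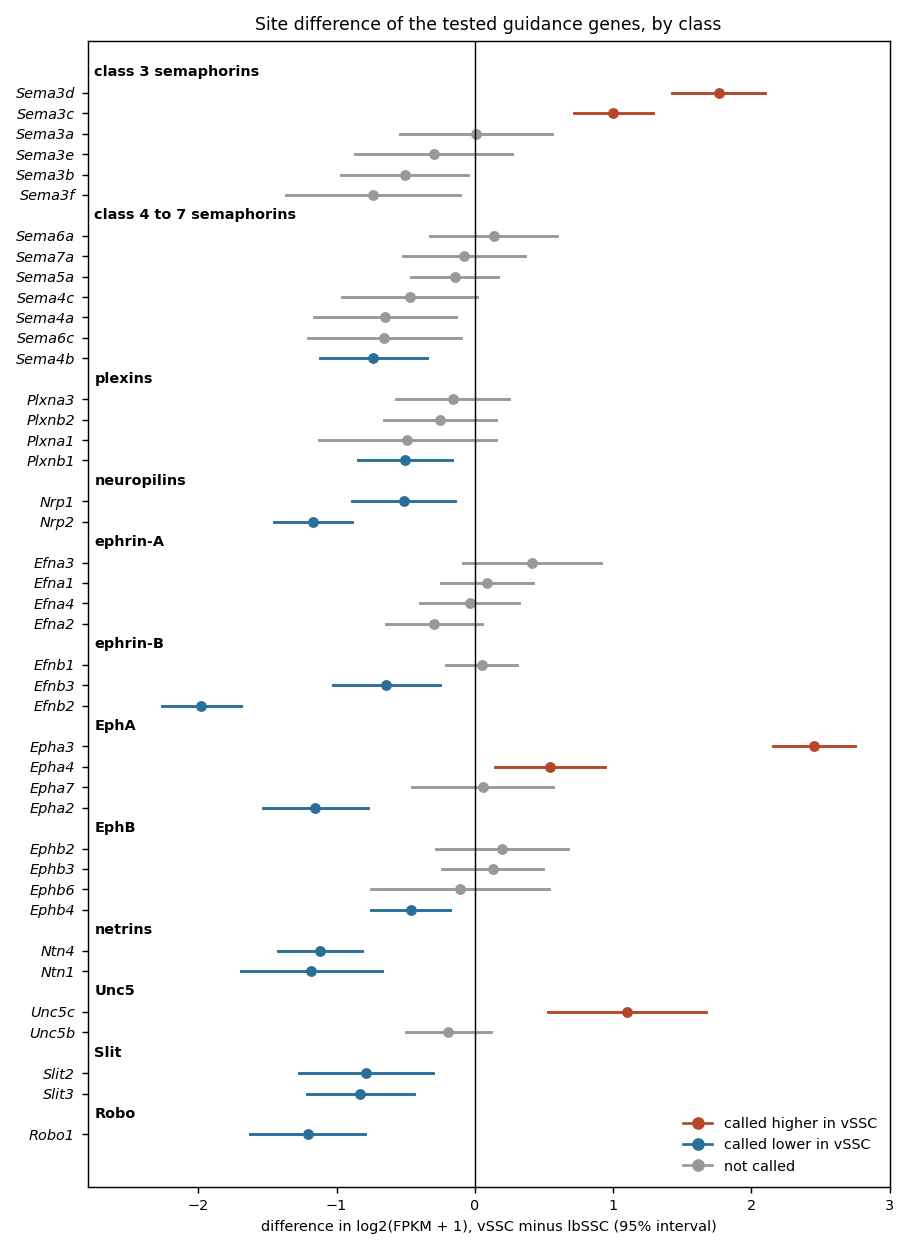
Difference in log2(FPKM + 1), vSSC minus lbSSC, with its 95% interval, for the 41 tested guidance genes grouped by class and coloured by call. Epha3 lies farthest to the right at 2.45 and Efnb2 farthest to the left at -1.98.

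The sequence next to the gene start is given for the 2 genes with the largest difference in each direction, and none of the windows holds an annotated exon. Each is the 250 bases before the RefSeq start in build GRCm38.p6, read 5′ to 3′ on the gene's strand, at chr16:63864176-63864425 on the minus strand (Epha3), chr5:12382916-12383165 on the plus strand (Sema3d), chr8:8661243-8661492 on the minus strand (Efnb2) and chr16:72662899-72663148 on the plus strand (Robo1). Capitals mark matches, on either strand, to the letters searched: the TATA box as TATAAA, the GC box as GGGCGG, the CCAAT box by the letters of its name, the Runx core as TGTGGT, the Sox site as ACAAAG, the homeodomain site as TAATTA and the Pitx site as TAATCC.
Epha3: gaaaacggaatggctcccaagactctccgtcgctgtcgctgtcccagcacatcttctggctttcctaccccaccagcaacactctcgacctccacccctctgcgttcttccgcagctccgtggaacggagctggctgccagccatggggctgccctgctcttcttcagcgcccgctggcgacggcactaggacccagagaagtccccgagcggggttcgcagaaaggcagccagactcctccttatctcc
Sema3d: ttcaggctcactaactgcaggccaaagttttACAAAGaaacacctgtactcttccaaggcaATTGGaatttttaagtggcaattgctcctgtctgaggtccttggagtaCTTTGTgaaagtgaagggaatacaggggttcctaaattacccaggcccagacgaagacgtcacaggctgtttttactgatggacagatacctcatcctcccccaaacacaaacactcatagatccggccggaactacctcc
Efnb2: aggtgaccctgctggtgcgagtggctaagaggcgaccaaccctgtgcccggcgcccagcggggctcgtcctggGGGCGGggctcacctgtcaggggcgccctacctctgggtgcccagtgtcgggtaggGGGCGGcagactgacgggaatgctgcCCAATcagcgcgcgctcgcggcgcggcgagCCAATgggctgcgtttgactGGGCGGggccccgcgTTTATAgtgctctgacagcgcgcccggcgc
Robo1: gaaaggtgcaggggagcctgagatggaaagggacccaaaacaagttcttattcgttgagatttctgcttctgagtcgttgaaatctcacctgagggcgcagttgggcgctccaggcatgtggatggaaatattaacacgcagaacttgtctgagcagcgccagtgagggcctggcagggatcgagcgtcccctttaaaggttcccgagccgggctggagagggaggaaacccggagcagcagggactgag

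The windows of Epha3 and Robo1 held none of these letters. The RefSeq start is the listed gene start for Efnb2 and Robo1, and lies 17 bases before it for Epha3 and 219 bases before it for Sema3d. The window of Sema3d held 2 Sox matches, 219 and 141 bases before the RefSeq start, and a CCAAT match at 189. The Efnb2 window held 3 GC boxes, 2 CCAAT boxes and a reversed TATA box that begins 30 bases before the start. Over the 32851 windows of the RefSeq table, 16.5% held the Sox letters, 33.8% the CCAAT box, 32.7% the GC box, 12.4% the TATA box, 14.0% the Runx letters, 4.84% the homeodomain letters and 6.25% the Pitx letters. The Robo1 window lies inside an intron of a longer annotated transcript. The table matched 60 of the 69 member symbols. Such matches describe these letters alone.

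Secreted class 3 semaphorins had the highest summed level of the ligand classes at both sites. They summed to 115 to 141 FPKM in vSSC libraries and 61.3 to 68.4 FPKM in lbSSC libraries. Of the 7 genes, 2 were called and both were higher in vSSC. Sema3d, which steers axons and neural crest cells, was the most abundant guidance gene of vSSC, with 86.5, 70.3, 68.1 and 63.9 FPKM in vSSC and 23.5, 22.2, 14.8 and 22.6 FPKM in lbSSC. Every vSSC library lay above every lbSSC library by a wide gap. Its mean was 72.2 ± 9.87 FPKM in vSSC and 20.8 ± 4.03 FPKM in lbSSC, 3.48-fold higher in vSSC, with a difference of 1.76 ± 0.15 (limma, adjusted p = 1.84e-05). Sema3c, a ligand of neuropilins known for its part in heart outflow tract development, stood at 35.3, 35.9, 47.0 and 37.5 FPKM in vSSC and 17.3, 16.4, 21.8 and 20.3 FPKM in lbSSC. No values overlapped, and the vSSC mean of 38.9 ± 5.44 FPKM was 2.05-fold the lbSSC mean of 18.96 ± 2.53 FPKM (1.00 ± 0.13, limma adjusted p = 0.000325).

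The remaining class 3 genes were not called. Sema3a, the founding repellent of sensory axons and a bone-protecting factor in mice, stood at 3.84, 7.69, 6.79 and 4.46 FPKM in vSSC and 3.50, 4.49, 6.45 and 8.51 FPKM in lbSSC. Its groups overlapped throughout, and the difference of 0.01 ± 0.25 had a 95% interval from -0.54 to 0.56 (limma adjusted p = 0.988). Sema3e, the class 3 ligand that binds plexin D1 without a neuropilin, had 7.54, 7.50, 11.4 and 4.06 FPKM in vSSC and 6.60, 9.12, 13.4 and 8.40 FPKM in lbSSC (-0.30 ± 0.26, limma adjusted p = 0.428). Here too the libraries of both sites were intermingled. Sema3b averaged 5.39 ± 1.64 FPKM in vSSC and 8.03 ± 1.90 FPKM in lbSSC (-0.51, limma adjusted p = 0.101). Sema3f, which acts mainly through neuropilin 2, was listed at 0, 0.881, 0.945 and 1.15 FPKM in vSSC and at 1.05, 1.11, 2.84 and 2.64 FPKM in lbSSC (-0.74, limma adjusted p = 0.0831). Sema3g reached at most 0.427 FPKM and was not tested.

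Sema3d, Sema3a, Sema3e and Sema3c lie in this order on 1 stretch of chromosome 5 and on the same strand. In GRCm38 they span 12383385 to 12588948, 13125414 to 13602565, 14025276 to 14256689 and 17574281 to 17730268, so their starts lie 742, 1642 and 5191 kb beyond that of Sema3d. The outer pair, Sema3d and Sema3c, was called higher in vSSC and the inner pair was not called. Of the 21 protein-coding genes listed over these 5347 kb, 5 were tested. The fifth, Cacna2d1, a calcium channel subunit, was also called higher in vSSC (0.39, limma adjusted p = 0.0372). Among all tested genes 14.3% were called higher, and this stretch begins and ends with the called genes Sema3d and Sema3c.

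**Figure D3:**
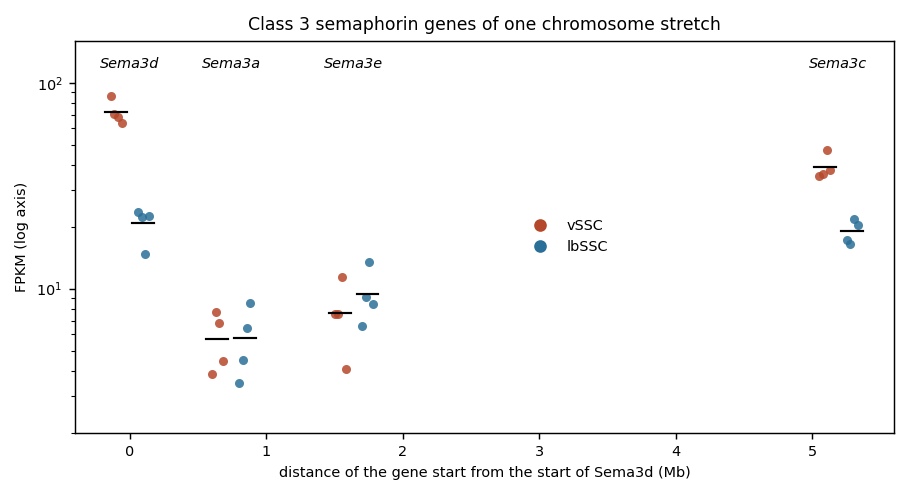
FPKM on a log axis in each library (points) and group mean (bar) for the 4 semaphorin genes of chromosome 5, vSSC left and lbSSC right, placed by the distance of the gene start from that of Sema3d in Mb. The groups are apart at Sema3d and Sema3c and overlap at Sema3a and Sema3e.

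Membrane-bound and other semaphorins of classes 4 to 7 summed to 19.5 to 27.4 FPKM in vSSC and 32.2 to 34.7 FPKM in lbSSC, without overlap. Of the 13 genes, 7 were tested, 1 was called lower and 6 of the 7 differences were below 0. Sema4b, a transmembrane semaphorin, was called lower, with 0.232, 0.950, 0.725 and 0.867 FPKM in vSSC and 1.93, 1.68, 1.96 and 1.54 FPKM in lbSSC (-0.73 ± 0.18, limma adjusted p = 0.0137). Both sites were apart, but all of its vSSC values lay under 1 FPKM, so it entered the test through lbSSC alone. Sema4c, a ligand of plexin B2 and the most abundant gene of this class, had 8.91, 4.29, 3.42 and 5.13 FPKM in vSSC and 8.60, 6.08, 7.81 and 7.73 FPKM in lbSSC. It was not called with all libraries (-0.47, limma adjusted p = 0.141), and its vSSC replicate 1 lay above every other library. Without that library the difference of Sema4c was -0.70 (limma adjusted p = 0.0153). Sema4a, also a transmembrane semaphorin, and Sema6c had differences of -0.65 each and were not called (limma adjusted p = 0.0640 for Sema4a and 0.0820 for Sema6c). Sema4a was called without vSSC replicate 2 (limma adjusted p = 0.0101), and Sema6c without vSSC replicate 4 (0.0204) or lbSSC replicate 1 (0.0413). Sema4d, which osteoclasts release to restrain osteoblasts in mice, had 0.993, 0.977, 0.232 and 0.780 FPKM in vSSC and 1.38, 1.13, 1.92 and 0.880 FPKM in lbSSC and was not tested.

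Of the receptors for semaphorins, both neuropilins were called lower in vSSC. Neuropilins bind class 3 semaphorins and vascular endothelial growth factors. Nrp2 had 3.47, 3.94, 3.62 and 3.72 FPKM in vSSC and 8.05, 9.74, 10.7 and 9.83 FPKM in lbSSC. The vSSC libraries lay close together and far below the lbSSC libraries. Means were 3.69 ± 0.198 FPKM in vSSC and 9.58 ± 1.11 FPKM in lbSSC, a difference of -1.17 ± 0.13 (limma adjusted p = 9.48e-05). Nrp1, the co-receptor of Sema3a, had 2.62, 3.25, 2.52 and 4.64 FPKM in vSSC and 5.13, 4.30, 5.23 and 5.29 FPKM in lbSSC. Its groups overlapped, since vSSC replicate 4 lay above lbSSC replicate 2. The difference of -0.51 ± 0.17 was just inside the threshold (limma adjusted p = 0.0472). Endothelial cells carry both neuropilins, and the endothelial sum was also lower in vSSC, at 0.258 to 0.455 FPKM against 1.07 to 2.75 FPKM in lbSSC. Its largest value was that of Plvap, at 2.44 FPKM in lbSSC replicate 4, while Cdh5, Tek and Tie1 were at 0 in most libraries of both groups. Plvap averaged 0.0994 FPKM in vSSC and 1.47 FPKM in lbSSC, and Esam and Tie1 also had lower means in vSSC. Pecam1 went the other way, at 0.190 FPKM in vSSC and 0.0950 FPKM in lbSSC. The means of Cdh5, Kdr, Tek and Emcn, all low, were also higher in vSSC. The part of endothelial cells in the neuropilin results was not tested.

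Plexins, which carry the signal of semaphorins into the cell, summed to 20.8 to 32.0 FPKM in vSSC and 28.6 to 40.8 FPKM in lbSSC, and 4 of the 9 were tested. Plxnb1, the receptor of Sema4d on osteoblasts, was called lower, with 3.29, 4.39, 3.15 and 5.16 FPKM in vSSC and 5.56, 5.77, 6.15 and 6.61 FPKM in lbSSC. A small margin parted the groups (-0.51 ± 0.16, limma adjusted p = 0.0366). Plxnb2, the most abundant plexin, had 22.4, 12.9, 13.5 and 18.9 FPKM in vSSC and 18.9, 15.8, 21.1 and 24.4 FPKM in lbSSC. It was not called (-0.25, limma adjusted p = 0.342), and the groups were intermingled. Plxna1, a partner of neuropilins, had 1.40, 4.23, 1.24 and 4.42 FPKM in vSSC and 4.47, 2.75, 4.50 and 4.22 FPKM in lbSSC and was not called, with vSSC replicates 1 and 3 apart from all other libraries. Plxnd1, the receptor of Sema3e, was not tested and reached 2.08 FPKM in lbSSC replicate 3.

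Among ephrins, the membrane-bound ligands of Eph receptors, 2 of the 3 B genes were called lower in vSSC and none of the 4 tested A genes was called. Efnb2, the ephrin-B2 ligand of arteries and osteoclasts, had the largest decrease of the guidance genes, with 2.03, 1.81, 1.99 and 2.52 FPKM in vSSC and 11.9, 10.9, 11.6 and 10.1 FPKM in lbSSC. The libraries of each site lay close together, far from those of the other site. Its mean was 2.09 ± 0.303 FPKM in vSSC and 11.1 ± 0.811 FPKM in lbSSC, 5.33-fold higher in lbSSC, with a difference of -1.98 ± 0.13 (limma, adjusted p = 1.90e-06). Efnb3, another ephrin-B ligand, had 0.345, 0.746, 0.483 and 0.755 FPKM in vSSC and 1.07, 1.25, 2.08 and 1.51 FPKM in lbSSC (-0.64 ± 0.18, limma adjusted p = 0.0247). Both sites were apart, but every vSSC value lay under 1 FPKM, so it entered the test through lbSSC alone. Efnb1, whose loss causes craniofacial and skeletal defects, was the most abundant ephrin-B gene, with 27.9, 24.8, 23.7 and 23.1 FPKM in vSSC and 25.3, 27.2, 23.3 and 20.4 FPKM in lbSSC. It was not called, and the groups covered the same range.

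Ephrin-A genes held 4 tested of 5 and no call. Efna1 was the most abundant, with 29.9, 21.4, 33.4 and 22.8 FPKM in vSSC and 28.0, 23.6, 26.5 and 21.7 FPKM in lbSSC, fully intermingled. Efna2, an ephrin-A ligand of osteoclasts in mice, had 4.54, 6.28, 6.32 and 6.48 FPKM in vSSC and 6.04, 9.27, 7.87 and 6.84 FPKM in lbSSC, also with overlap. The median difference of the 4 was 0.03.

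The EphA receptors gave the largest increase. Epha3, a receptor of A-type ephrins that repels axons and cells on contact, had 26.4, 20.7, 21.3 and 18.4 FPKM in vSSC and 2.86, 2.96, 3.21 and 3.44 FPKM in lbSSC. No lbSSC library came near any vSSC library. The vSSC mean of 21.7 ± 3.38 FPKM was 6.96-fold the lbSSC mean of 3.12 ± 0.259 FPKM, a difference of 2.45 ± 0.13 with a 95% interval from 2.16 to 2.75 (limma adjusted p = 5.80e-07). The gene is listed on the minus strand of chromosome 16, from 63543538 to 63864158 in GRCm38. Epha3 made up most of the summed EphA level of vSSC, which was 26.5 to 32.8 FPKM in vSSC and 13.1 to 16.5 FPKM in lbSSC.

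Epha2, a receptor that restrains osteoblast formation in mice, moved the other way, with 2.02, 3.16, 2.03 and 3.15 FPKM in vSSC and 5.89, 7.86, 5.84 and 8.27 FPKM in lbSSC. Its groups did not overlap, and Epha2 was the most abundant EphA receptor of lbSSC, whereas Epha3 was that of vSSC. Epha2 averaged 2.59 ± 0.655 FPKM in vSSC and 6.96 ± 1.28 FPKM in lbSSC (-1.15 ± 0.17, limma adjusted p = 0.000850). Epha4, which binds ephrins of both classes, was called higher just inside the threshold, with 2.72, 3.43, 2.36 and 2.90 FPKM in vSSC and 2.29, 1.12, 1.26 and 2.04 FPKM in lbSSC (0.54 ± 0.18, limma adjusted p = 0.0487). Its highest lbSSC library lay just below its lowest vSSC library. Epha7 was tested and not called, and the other 6 EphA rows were not tested.

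Of the EphB receptors, which bind B-type ephrins, Ephb4 was called lower in vSSC. Ephb4, the receptor of Efnb2 on osteoblasts and veins, had 11.9, 13.9, 10.7 and 14.8 FPKM in vSSC and 15.4, 18.6, 19.04 and 19.07 FPKM in lbSSC. The groups did not overlap, with the lowest lbSSC library close above the highest vSSC library. Its means were 12.8 ± 1.85 FPKM in vSSC and 18.03 ± 1.78 FPKM in lbSSC (-0.46 ± 0.13, limma adjusted p = 0.0258). Ephb3 averaged 7.02 ± 1.81 FPKM in vSSC and 6.18 ± 0.205 FPKM in lbSSC and was not called (0.13, limma adjusted p = 0.594). The osteoclast genes Ctsk and Acp5 were called lower in vSSC as well, with their list's sum at 55.0 to 77.5 FPKM in vSSC and 107 to 127 FPKM in lbSSC. Of the 6 osteoblast genes, Col1a1 and Bglap were called lower and Sp7 higher in vSSC, and Runx2, Alpl and Ibsp were not called, with a median difference of 0.10 and a sum of 1138 to 1256 FPKM in vSSC and 3996 to 5856 FPKM in lbSSC. The part of such cells in the Efnb2, Epha2 and Ephb4 results was not tested.

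Both tested netrins were called lower in vSSC, and netrins summed to 6.49 to 9.41 FPKM in vSSC and 16.8 to 21.0 FPKM in lbSSC. Ntn4, a netrin that binds laminins of the basement membrane, had 6.31, 5.44, 4.89 and 4.06 FPKM in vSSC and 11.03, 12.5, 12.8 and 12.8 FPKM in lbSSC. A clear gap parted the groups. Its mean was 5.18 ± 0.945 FPKM in vSSC and 12.3 ± 0.857 FPKM in lbSSC (-1.12 ± 0.14, limma adjusted p = 0.000226). Ntn1, the classical attractant of spinal commissural axons, had 1.62, 3.97, 1.84 and 2.40 FPKM in vSSC and 7.46, 4.18, 8.08 and 7.37 FPKM in lbSSC. The groups did not overlap, although lbSSC replicate 2 came close to vSSC replicate 2. Ntn1 averaged 2.46 ± 1.06 FPKM in vSSC and 6.77 ± 1.76 FPKM in lbSSC (-1.18 ± 0.23, limma adjusted p = 0.00450). Ntn5 reached at most 0.508 FPKM and was not tested.

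The netrin receptor Unc5c, which mediates repulsion from netrin, was called higher in vSSC, opposite to the netrins. It had 17.6, 40.2, 20.7 and 22.5 FPKM in vSSC and 17.3, 9.90, 9.55 and 7.83 FPKM in lbSSC. The groups did not overlap, but the lowest vSSC library and the highest lbSSC library, both replicate 1, lay close together. The vSSC mean of 25.2 ± 10.2 FPKM was 2.26-fold the lbSSC mean of 11.2 ± 4.21 FPKM (1.10 ± 0.26, limma adjusted p = 0.0124). Unc5b, a netrin receptor of vessels, had 7.48, 10.2, 8.13 and 11.2 FPKM in vSSC and 10.7, 10.1, 11.6 and 10.0 FPKM in lbSSC and was not called. Unc5a and Unc5d stayed at 0.102 FPKM or below.

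Slit genes and their Robo receptors were low at both sites and lower in vSSC where tested. Slit genes summed to 0.740 to 1.87 FPKM in vSSC and 3.25 to 5.65 FPKM in lbSSC, and Robo genes to 0.863 to 1.39 FPKM in vSSC and 3.56 to 4.21 FPKM in lbSSC. Slit2, a repellent of axons, had 1.33, 0.375, 0.979 and 1.16 FPKM in vSSC and 3.43, 2.07, 2.59 and 1.497 FPKM in lbSSC (-0.79 ± 0.22, limma adjusted p = 0.0252). Slit3, a relative known in mice to act on vessels and bone formation, had 0.533, 0.364, 0.543 and 0.521 FPKM in vSSC and 1.44, 1.14, 2.46 and 1.70 FPKM in lbSSC (-0.83 ± 0.18, limma adjusted p = 0.00707). Neither gene had overlapping groups. Slit3 was under 1 FPKM in every vSSC library and entered the test through lbSSC alone, so its groups could not overlap. Robo1, the main Slit receptor tested here, had 0.401, 0.605, 0.393 and 0.515 FPKM in vSSC and 2.13, 1.50, 3.11 and 3.20 FPKM in lbSSC. Every vSSC library was under 1 FPKM and every lbSSC library above it, so the gene entered the test through lbSSC alone. Means were 0.478 ± 0.101 FPKM in vSSC and 2.49 ± 0.816 FPKM in lbSSC (-1.21 ± 0.19, limma adjusted p = 0.00109). Robo2 reached 2.06 FPKM in lbSSC replicate 2 and was not tested, Robo3 was listed at 0 in all 8 libraries, and Robo4, the Robo of endothelium, at 0 in 7 of them.

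**Figure D4:**
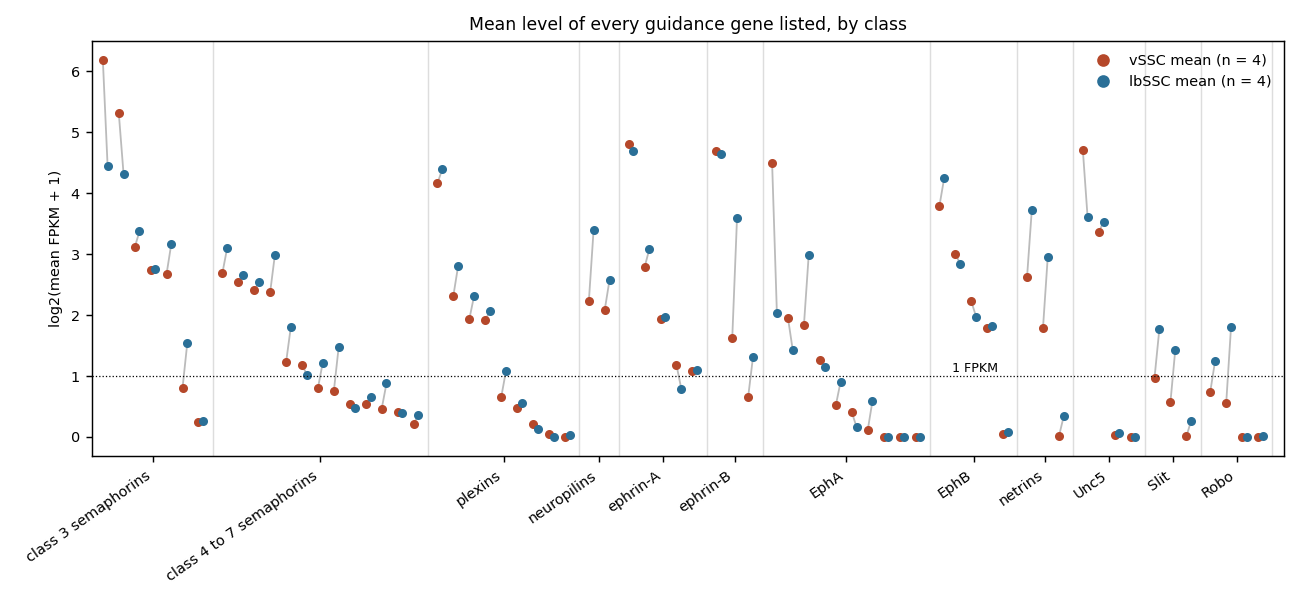
Mean level of every guidance row as log2(mean FPKM + 1), vSSC left and lbSSC right of each joined pair, grouped by class, with 1 FPKM dotted. Sema3d and Sema3c stand highest in vSSC, and 27 rows did not enter the test.

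The 27 guidance rows that were not tested reached at most 2.08 FPKM (Plxnd1), and 4 of them were listed at 0 in every library (Epha6, Epha10, Robo3 and 1 row of Epha5). In 3 untested genes all vSSC libraries lay below all lbSSC libraries, namely Epha5, Ntn5 and Slit1, and in 0 they lay above. Over all 11324 untested rows, 445 lay below and 140 above, and 5675 were listed at 0 in every library. Ntn5 and Slit1 were listed at 0 in vSSC replicates 1, 2 and 3. Epha5 averaged 0.0798 FPKM in vSSC and 0.508 FPKM in lbSSC. Ntn5 averaged 0.00706 FPKM in vSSC and 0.264 FPKM in lbSSC, and Slit1 0.00738 FPKM in vSSC and 0.204 FPKM in lbSSC. Of the rows matched by name only, Unc50 averaged 115 ± 10.9 FPKM in vSSC and 81.6 ± 8.79 FPKM in lbSSC (0.49 ± 0.11, limma adjusted p = 0.0101), and Unc5cl reached at most 0.268 FPKM.

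The calls differed in how firmly they held. Epha3, Sema3d, Sema3c, Efnb2, Nrp2 and Ntn4 were called under each of the 20 alternatives. Robo1, Ntn1, Epha2, Slit3 and Unc5c lost the call only with each library's ribosomal share as a covariate, where their differences were -0.80 for Robo1, -0.71 for Ntn1, -0.83 for Epha2, -0.62 for Slit3 and 0.97 for Unc5c. Robo1, Ntn1 and Slit3 were not tested with the filter at 5 FPKM. The filter was not re-applied when libraries were left out. Those fits thus could not drop Robo1 or Slit3, which entered the test through lbSSC alone. Sema4b lost it there and without vSSC replicates 1 and 3 together (-0.54, limma adjusted p = 0.0699). For the other 6 the call ended when certain single libraries were left out, and also with the ribosomal share as a covariate, where the differences were -0.11 for Nrp1, -0.11 for Plxnb1, -0.14 for Ephb4, -0.22 for Efnb3, -1.10 for Slit2 and 0.61 for Epha4. Epha4 was not called without vSSC replicate 1 (limma adjusted p = 0.0786), 2 (0.110), 3 (0.0581) or 4 (0.0713), nor without lbSSC replicate 2 (0.117), 3 (0.134) or 4 (0.0645), and median-of-ratios scaling (0.0835), rescaling to one sum (0.116) or sex as a covariate (0.0523) also ended its call. Nrp1 was not called without vSSC replicate 1 (limma adjusted p = 0.109), 2 (0.0797) or 3 (0.118), nor without any 1 of the lbSSC replicates (0.0545 to 0.118). Plxnb1 was not called without vSSC replicate 1 (limma adjusted p = 0.0860) or 3 (0.0945), nor without any 1 of the lbSSC replicates (0.0503 to 0.102). Ephb4 lost the call without vSSC replicate 1 (limma adjusted p = 0.0619) or 3 (0.0724), or lbSSC replicate 2 (0.0562), 3 (0.0754) or 4 (0.0675). Efnb3 lost it without vSSC replicate 1 (limma adjusted p = 0.0592) or 3 (0.0565), or lbSSC replicate 3 (0.0828) or 4 (0.0633). Slit2 lost it without vSSC replicate 2 (limma adjusted p = 0.0607), or lbSSC replicate 1 (0.0608) or 3 (0.0697). Without the filter on low values, Epha4 (limma adjusted p = 0.0832), Nrp1 (0.0856), Plxnb1 (0.0638) and Slit2 (0.0556) were not called either. These lists leave out some alternatives. Of those that tested each gene, the call was lost in 14 of 19 for Epha4, 12 of 19 for Nrp1 and 9 of 20 for Plxnb1. It was lost in 7 of 20 for Ephb4, 7 of 19 for Efnb3 and 6 of 19 for Slit2. None of the 18 differences changed sign.

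**Figure D5:**
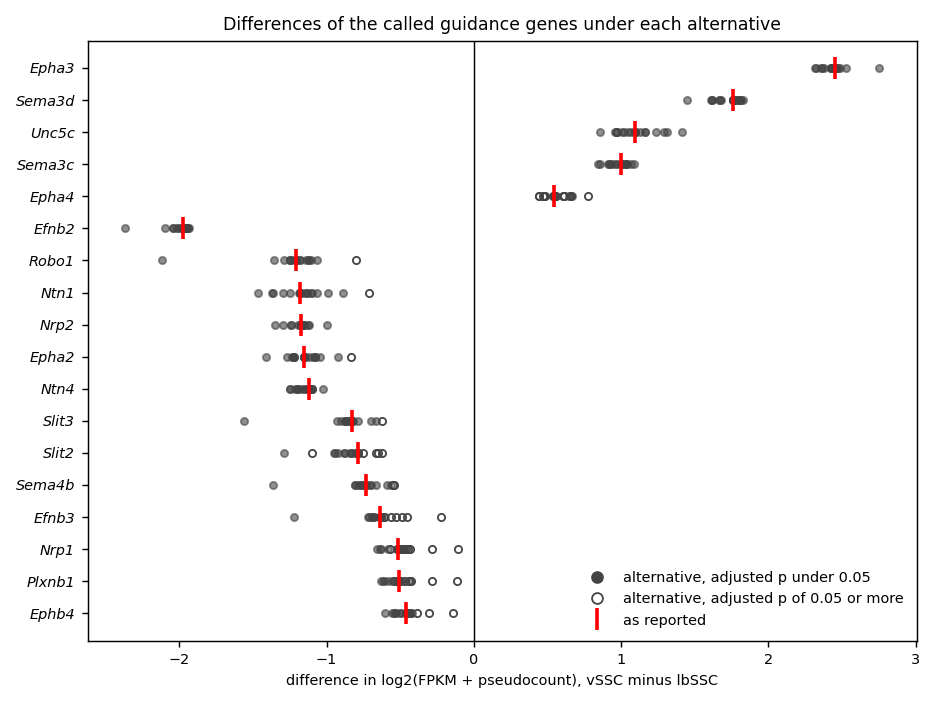
Difference on the log2 scale, vSSC minus lbSSC, of the 18 called guidance genes as reported (red bar) and under each alternative (points, open where the adjusted p was 0.05 or more). Epha3 stays above 2 and Efnb2 below -1.9 throughout, and no gene crosses 0.

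Exons of some members overlap those of another gene, and the library kit does not mark strand, so their fragments cannot be told apart. This holds for Ephb4 with Zan, Unc5c with Gm15688, Plxnb1 with Gm7628, Nrp1 with Mir1903, Sema4c with D430040D24Rik, Plxna1 with Gm26811, Sema4a with Mir7011, Ntn5 with Sec1 and Unc5a with Hk3, and for 8 further members.

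Genes that work with these cues were looked at from 3 lists. Of 24 co-receptors and other cues, 12 were tested, 2 called higher and 2 lower, with a median difference of 0.005, where 14.3% of all tested genes were called higher and 9.17% lower. Flrt2, a membrane protein that binds Unc5 receptors, was called higher, with 19.3, 17.6, 15.8 and 21.7 FPKM in vSSC and 7.78, 7.44, 8.01 and 7.69 FPKM in lbSSC (1.16 ± 0.12, limma adjusted p = 7.45e-05). It was called under each of the 20 alternatives, and its groups lay far apart. Its relative Flrt3 was called lower, with 1.73, 3.94, 1.91 and 5.15 FPKM in vSSC and 6.38, 6.31, 6.68 and 6.83 FPKM in lbSSC (-0.94 ± 0.24, limma adjusted p = 0.0168). The groups did not overlap, and without vSSC replicates 1 and 3 the difference was -0.45 (limma adjusted p = 0.0893). Gpc3, a glypican, averaged 75.6 ± 14.7 FPKM in vSSC and 49.7 ± 10.1 FPKM in lbSSC (0.60 ± 0.17, limma adjusted p = 0.0282), and its relative Gpc1 46.5 ± 12.6 FPKM in vSSC and 67.7 ± 7.86 FPKM in lbSSC (-0.56 ± 0.17, limma adjusted p = 0.0321). Gpc3 lost the call without vSSC replicate 3 (limma adjusted p = 0.0695) or 4 (0.0530) or lbSSC replicate 1 (0.0529). Gpc1 lost it without vSSC replicate 1 (limma adjusted p = 0.0883), 2 (0.0572) or 3 (0.0899) or lbSSC replicate 1 (0.0710), 3 (0.0556) or 4 (0.0707). Among all alternatives, the call was lost in 3 of 20 for Flrt3, 8 of 20 for Gpc3 and 9 of 20 for Gpc1. Of the other netrin receptors, Dcc was listed at 0 in all 8 libraries, and Neo1, which encodes neogenin, averaged 25.5 ± 5.77 FPKM in vSSC and 32.0 ± 3.96 FPKM in lbSSC. Neo1 was not called (-0.33, limma adjusted p = 0.137) but was called without vSSC replicate 4 (-0.47, limma adjusted p = 0.0281).

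Of 45 intracellular effectors, 37 were tested, 2 called higher and 5 lower, with a median of -0.005, where 14.3% of all tested genes were called higher and 9.17% lower. Rhoa, the small GTPase of growth cone collapse, was called higher at 383 ± 25.5 FPKM in vSSC and 250.2 ± 44.7 FPKM in lbSSC (0.63 ± 0.13, limma adjusted p = 0.00683). Tiam1, an activator of the GTPase Rac, was called lower at 0.437 ± 0.345 FPKM in vSSC and 2.15 ± 0.574 FPKM in lbSSC (-1.15 ± 0.21, limma adjusted p = 0.00274). Enah, an actin regulator, averaged 8.52 ± 2.82 FPKM in vSSC and 15.6 ± 2.08 FPKM in lbSSC (-0.84 ± 0.20, limma adjusted p = 0.0111). In Rhoa and Enah the groups did not overlap. Without vSSC replicates 1 and 3 together, Rhoa (limma adjusted p = 0.0664) and Enah (0.0845) were not called. Tiam1 was under 1 FPKM in every vSSC library and entered the test through lbSSC alone, so its groups could not overlap. Dpysl4, a collapsin response mediator, was also called lower (-1.07 ± 0.26, limma adjusted p = 0.0136), although vSSC replicate 1 at 1.81 FPKM lay above lbSSC replicate 4 at 1.68 FPKM. Among all alternatives that tested them, Rhoa and Enah each lost the call in 2 of 20. Tiam1 and Dpysl4 each lost it in 1 of 19.

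Of 8 proteases that cut guidance proteins, all were tested, 3 called lower and 0 higher, with a median of -0.30, beside the same shares of all tested genes. Mmp14, a membrane-bound matrix protease, averaged 113 ± 18.3 FPKM in vSSC and 163 ± 13.2 FPKM in lbSSC (-0.53 ± 0.13, limma adjusted p = 0.0118), without overlap, and was not called without vSSC replicates 1 and 3 together (limma adjusted p = 0.137). Adam10, which cuts ephrins, averaged 5.41 ± 0.714 FPKM in vSSC and 8.40 ± 1.54 FPKM in lbSSC (-0.54 ± 0.16, limma adjusted p = 0.0289). It lost the call without vSSC replicate 3 (limma adjusted p = 0.0550) or 4 (0.0560), or lbSSC replicate 1 (0.0607), 2 (0.0691) or 3 (0.0864). Mmp9, a gelatinase of osteoclasts, was at 2.15 ± 0.389 FPKM in vSSC and 4.20 ± 1.68 FPKM in lbSSC (-0.67 ± 0.22, limma adjusted p = 0.0481), with overlap. Mmp9 lost the call without vSSC replicate 1 (limma adjusted p = 0.0919), 2 (0.0813) or 3 (0.115) or lbSSC replicate 2 (0.114) or 3 (0.140). Among all alternatives, the call was lost in 2 of 20 for Mmp14, 8 of 20 for Adam10 and 10 of 19 for Mmp9.

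No guidance gene was called between male and female libraries, or for an interaction of site and sex, with limma. Among all tested genes 0.0466% were called by sex and 0% for the interaction. At an unadjusted p under 0.05, 2 of the 41 guidance genes differed by sex, namely Sema3f and Sema3c, both lower in males, and 1, Plxna3, for the interaction, against 8.31% and 3.77% of all tested genes. The smallest limma adjusted p of a member was 0.487 by sex and 0.981 for the interaction. With 2 libraries per sex and site, these counts of 0 do not show that the sexes were alike.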

How the data were processed

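RNA was measured in 4 vSSC and 4 lbSSC libraries, grouped by their labels. Per the labels' protocols, RNA came from a column kit and libraries from SMART-Seq v4 with Nextera XT, which does not mark strand. The tools named in the submitters' processing notes are Cufflinks 2.1.1, STAR 2.5.2 and bcl2fastq 2.19, with build GRCm38. The values the authors deposited are FPKM per protein-coding gene. No row was dropped for its status (40 had one other than OK), and no 2 libraries held identical values. Because FPKM is relative to each library's total, abundant genes that gain lower the rest. In genes at 0.01 to 0.15 FPKM at most 7 shared 1 ratio between libraries, so depth could not be recovered.

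The log2(FPKM + 1) values were fitted with limma 3.58.1 under R 4.3.3 (empirical Bayes, variance trend), without covariates for site, with site as a covariate for sex, and with both for their interaction. The procedure was tested on simulated data. The members, lists and tests were chosen with earlier results of these data known. All called members are named, with the most abundant of each class, every other member with a mean of at least 10 FPKM, up to 4 genes of each list by p, Dcc and Neo1. A few members that bind these or stood out were added after their values were seen. Some listed symbols were not analysed here. Replicate numbers were not treated as pairs in the fits as reported. Strand and exon overlap came from GENCODE M21, whose gene starts matched 62 of the 70 rows after 1 was added to the listed start. Alternatives were a pseudocount of 0.1, no filter, a filter at 5 FPKM, median-of-ratios, quantile and one-sum scaling, no trend, library weights, sex, replicate number or ribosomal protein share as a covariate, and libraries left out singly or vSSC replicates 1 and 3 together.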

Additional observations from a re-analysis of the deposited data

Results flagged for a closer look

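In 6 of the 84 groups of 4 libraries examined (7.14%), 1 library stood apart from the other 3 by Dixon's criterion, where chance gives about 5%. In lbSSC these were Sema3d in replicate 3, at 14.8 FPKM with the other 3 libraries at 22.2 to 23.5 FPKM, Plxna1 in replicate 2, at 2.75 FPKM with the others at 4.22 to 4.50 FPKM, Nrp1 in replicate 2, at 4.30 FPKM with the others at 5.13 to 5.29 FPKM, and Ephb4 in replicate 1, at 15.4 FPKM with the others at 18.6 to 19.1 FPKM. In vSSC they were Efna2 in replicate 1, at 4.54 FPKM with the others at 6.28 to 6.48 FPKM, and Slit3 in replicate 2, at 0.364 FPKM with the others at 0.521 to 0.543 FPKM. In each case the library that stood apart was the lowest of its group.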

How the results depend on the processing

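With each library's ribosomal share as a covariate, 3 guidance genes were called higher and 4 lower, and the 4 lower were Efnb2, Nrp2, Ntn4 and Sema3b, the last of which was not called as reported. Over all tested genes that covariate left 237 higher and 384 lower calls, against 1534 and 984 as reported. The ribosomal share is nearly confounded with site. The lower count was 6 with a filter at 5 FPKM, which tests 22 of the members, and 8 without vSSC replicates 1 and 3 together. Over all genes, 619 of the 7069 tested with that filter and 592 of the 10729 tested without those libraries were called lower. Leaving out 1 library at a time gave 4 to 5 higher and 8 to 14 lower calls. Over all tested genes these fits gave 839 to 1878 higher and 684 to 1113 lower calls. Under every other alternative both counts stayed within 1.5 times. The counts by sex and by interaction were 0 in each alternative that could be fitted, and at most 7 and 8 members passed unadjusted.

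Sema3a, which was not called, had a difference below 0 with median-of-ratios scaling (-0.065), quantile normalization (-0.0021) and rescaling to one sum (-0.12), and without vSSC replicate 2 (-0.13) or 3 (-0.08) or lbSSC replicate 1 (-0.17) or 2 (-0.07), with a range of -0.17 to 0.19 over the libraries left out. With the ribosomal share as a covariate Sema3f (0.10), Sema6c (0.12) and Neo1 (0.16) were above 0. Over the alternatives Plxna1 (-0.70 to 0.36), Unc5b (-0.33 to 0.10), Efna1 (-0.28 to 0.19) and Efnb1 (-0.17 to 0.11), none of them called, also took both signs. The cause was not tested. No called member changed sign. Over all tested genes 60.9% of calls were higher in vSSC as deposited, 51.9% with median-of-ratios scaling, 50% with quantile normalization and 42.4% after rescaling to one sum.

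With the replicate number as a block, 5 guidance genes were called higher and 16 lower, and Sema3b, Sema3f and Sema6c were the 3 gained. Over all tested genes the block gave 2016 higher and 1178 lower calls, against 1534 and 984 as reported. Whether the numbers pair the libraries was not settled by these values. Correlations of same-numbered libraries were 0.257 for replicate 1, -0.0878 for 2, -0.0639 for 3 and 0.435 for 4. In all, 4 of 8 libraries correlated best with their own number, namely both of replicate 1 and both of replicate 4. Depth is unknown, and differences of genes near 1 FPKM are the least certain.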
